A study of Mus musculus with 28 samples.

Results

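The region described here is the neighbourhood of 3 genes on mouse chromosome 12, Esrrb, Irf2bpl and Cipc. Its members are the deposited ChIP-exo events of Forkhead factors that lie inside 1 of these genes or within 50 kb of either of its ends. ChIP-exo is chromatin immunoprecipitation followed by an exonuclease that trims the DNA back towards the crosslinked protein, so each event is a single base position. The neighbourhood held 276 of the 162571 events in the 14 lists used. The genes were chosen by the number of FoxA1 events near them in these lists, so that number is a description of the choice and carries no test.

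All cells were derivatives of MC1 mouse embryonic stem (ES) cells of the 129S6/SvEvTac strain, and each line had a factor with a C-terminal His6-FLAG tag in the Rosa26 locus, shut off by doxycycline (Dox), beside a puromycin resistance gene. Dox was washed away and the cells were kept in serum-containing differentiation medium for the hours given. Lists named for a factor only, called combined lists here, were taken to combine its libraries at 24 h after Dox removal, though the sources do not state which libraries entered. At that time the labels give 3 libraries for FoxA1, 2 with anti-FLAG and 1 with anti-FoxA1, and 2 each for FoxC1, FoxL2 and FoxP3, with anti-FLAG. FoxA1 cells were also followed at 0, 6, 12, 24 and 48 h with an anti-FoxA1 and, separately, an anti-FLAG antibody, with 1 library and 1 list at each time. An empty control line without a factor (2 libraries, 0 h) has no list used here. Each factor was thus studied in 1 transgenic line driven from Rosa26, in cells that were leaving the ES cell medium while the factor came on. Event lists hold no expression values, so the labelled cell type could not be set against its marker genes.

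Esrrb encodes an orphan nuclear receptor that is part of the transcription factor network of naive pluripotent ES cells. Irf2bpl encodes a nuclear protein related to the IRF2-binding proteins, and Cipc encodes an inhibitor of the CLOCK protein of the circadian clock. FoxA1 is a pioneer factor of endoderm and its derivatives, able to engage sites in closed chromatin, and Forkhead proteins share a winged-helix DNA-binding domain that reads variants of a TGTTTAC-like sequence. FoxC1 acts in mesoderm and eye development, FoxL2 in the ovary and eyelid, and FoxP3 in regulatory T cells.

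On mm10 (GRCm38), Esrrb (gene ID 26380) spans chr12:86361117-86521628 on the plus strand, with listed starts at 86361117 and 86421644. Irf2bpl (gene ID 238330) is a short gene on the minus strand, chr12:86880703-86884814. Cipc (gene ID 217732) spans chr12:86944741-86965364 on the plus strand, with starts at 86947041 and 86947343. The window of Esrrb stands alone and is 260512 bp long. The windows of Irf2bpl and Cipc overlap and were merged into 1 stretch of 184662 bp, so some events count for both genes.

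Among the listed starts of the 3 genes, only that of Irf2bpl had events in the 250 bases before it. The sequence before it is shown because it holds the event nearest to a start of any of the 3 genes. The second sequence, before the long non-coding RNA gene Gm40491 in the window of Irf2bpl, is shown as the other one in the neighbourhood with events. Both are RefSeq promoter sequences of GRCm38.p6, 5′ to 3′ on the gene's own strand (minus for both), at chr12:86884815-86885064 and chr12:86833764-86834013. Capitals mark the bases within 10 of an event.
Irf2bpl: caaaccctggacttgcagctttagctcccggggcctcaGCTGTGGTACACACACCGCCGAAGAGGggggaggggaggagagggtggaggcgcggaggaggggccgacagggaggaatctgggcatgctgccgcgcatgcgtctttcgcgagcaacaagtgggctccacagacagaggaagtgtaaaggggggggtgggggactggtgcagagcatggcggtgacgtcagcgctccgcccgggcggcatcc
Gm40491: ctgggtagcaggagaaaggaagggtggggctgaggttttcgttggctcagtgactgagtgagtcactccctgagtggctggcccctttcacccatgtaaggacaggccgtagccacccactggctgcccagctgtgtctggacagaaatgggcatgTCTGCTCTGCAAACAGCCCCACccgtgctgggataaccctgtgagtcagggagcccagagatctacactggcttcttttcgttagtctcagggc

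The events before Irf2bpl were at 86885016 in the combined FoxA1 list (score 189), 86885012 with anti-FoxA1 at 24 h (score 49) and 86885010 with anti-FoxA1 at 48 h (score 92). The score is the value the authors deposited for each event, a whole number from 43 to 1000; what 1 unit stands for is not stated. The nearest of these events lay 196 bp before the start. The letters searched, on both strands, were the Forkhead sequence TGTTTAC, a known variant of it (TATTTAC), another such variant (TGTTTGC) and the Esrrb recognition sequence TCAAGGTCA. None of these 4 stood in the 250 bases before Irf2bpl, of which 66.8% were G or C against a median of 52.4% over 32817 promoters. Before Gm40491, events at 86833846 (anti-FoxA1 24 h, score 43) and 86833847 (anti-FoxA1 48 h, score 95) fell on the letters GCAAACA, which read TGTTTGC on the other strand, at 86833843 to 86833849. These letters stand in 4.30% of promoters of the same length, and any of the 3 Forkhead sets in 9.72%.

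Over all promoters in the table, 161 of 413 events of the combined FoxA1 list (39.0%, Wilson 95% interval 34.4 to 43.8, counting error only) had 1 of the 3 sets of letters within 10 bases, against 0.621% of all windows of 21 bases. Of 21238 promoter windows with 250 bases before and 50 after the start, 1.42% held an event of the combined list, 1.35% an anti-FoxA1 event at 24 h and 1.85% one at 48 h. The windows of 250 bases before the Esrrb and Cipc starts held no event and none of the 4 sets of letters. The event nearest to the first Esrrb start lay 1811 bp from it, and that nearest to the second 6832 bp. At Cipc the nearest events lay 3540 and 3238 bp from the listed starts. The span given for Cipc begins before both starts, at 86944741. Events at 86943173 (anti-FoxA1 48 h, score 43) and 86943175 (combined list, score 79) lay 1.57 kb before that end.

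Esrrb had 29 events in the combined FoxA1 list, 24 of them inside the gene. Having an event at all was common, since 74.2% of the 21887 protein-coding genes had at least 1 in this list inside or within 50 kb. The median gene had 2, and 9 genes (0.0411%), Esrrb included, had as many as Esrrb or more. Irf2bpl had 33 events, with 3 genes (0.0137%) at that number or above, and Cipc had 20, with 67 genes (0.306%). Of these, 14 events lay in the windows of both Irf2bpl and Cipc, so the counts of these genes are not independent.

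Per length, Irf2bpl stood highest. Its window held 31.7 combined FoxA1 events per 100 kb, and no other protein-coding gene had a denser one. With windows of 20 kb 10 genes were denser, with events at or above the list's median score 2 genes, and in the anti-FLAG list at 24 h 3 genes. Cipc had 16.6 events per 100 kb, with 19 genes denser, and Esrrb 11.1, with 55 genes denser, while the median gene had 1.29.

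**Figure D1:**
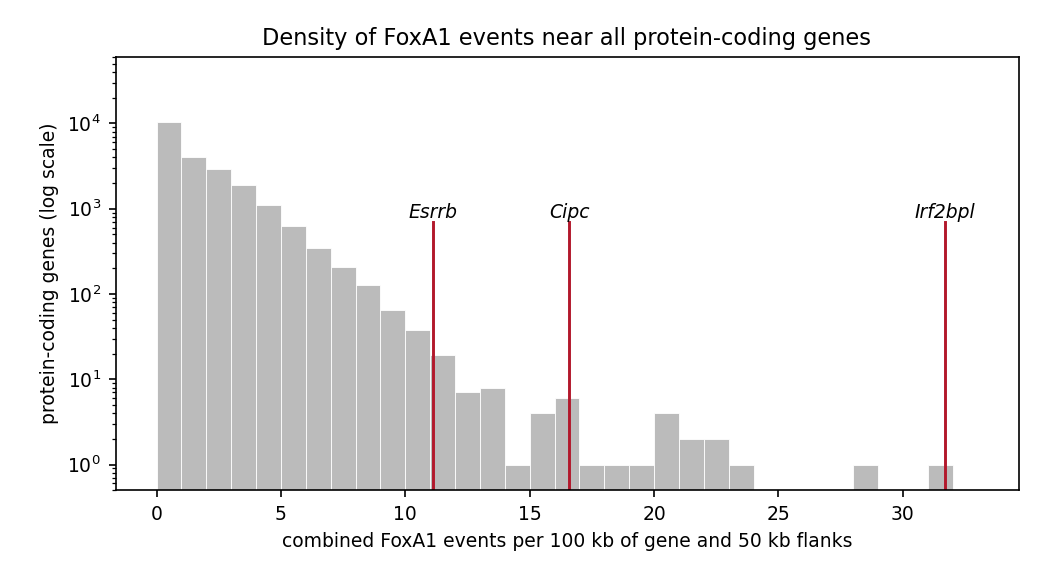
Histogram of combined FoxA1 events per 100 kb, counted inside each gene and its 50 kb flanks, for 21887 protein-coding genes (log scale on the vertical axis, bins 1 unit wide). Vertical lines mark Esrrb at 11.1, Cipc at 16.6 and Irf2bpl at 31.7, the last in the highest filled bin.

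In the FoxA1 time courses the neighbourhood had no event at 0 or 6 h with either antibody, when the lists held between 15 and 86 events genome-wide. With anti-FoxA1, Esrrb had 10 events at 12 h, 25 at 24 h and 26 at 48 h. Irf2bpl had 10, 30 and 35 at these times, and Cipc 6, 14 and 26. The share of all protein-coding genes with at least 1 event was 37.8%, 74.3% and 77.4% at these times. Events at the 3 genes became more numerous while the lists grew as a whole, from 8345 events at 12 h to 35134 at 24 h and 41726 at 48 h. Per 100 kb, Irf2bpl had 28.8 events at 24 h and 33.6 at 48 h, with no gene denser at either time, and 9.61 at 12 h, with 3 genes denser. Cipc was at 21.6 per 100 kb at 48 h, with 1 gene denser, against 11.6 at 24 h with 67 genes denser.

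With anti-FLAG the same genes had fewer events. Esrrb had 2 at 12 h, 13 at 24 h and 10 at 48 h, Irf2bpl had 2, 12 and 7, and Cipc 1, 4 and 4. All protein-coding genes with at least 1 event made up 10.5%, 52.8% and 50.3% at these times. The anti-FLAG lists were shorter as a whole, with 1656, 15984 and 13899 events. Per 100 kb at 48 h, 20 genes had a denser anti-FLAG window than Irf2bpl (6.72) and 346 than Esrrb (3.84).

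Events of all lists that lay within 100 bp of each other were joined into places. This gave 113 places, 45 around Esrrb and 68 around Irf2bpl and Cipc. Of the 7 FoxA1 lists with events here, a single one supplied 54 places, from 2 to 5 lists 47 places, and at least 6 lists 10 places. The remaining 2 places had no FoxA1 event. Places were not counted by number of lists genome-wide, so whether these numbers are usual is not known. Among places of a single FoxA1 list, 22 came from the combined list, 22 from the 48 h anti-FoxA1 list, 7 and 2 from those of 24 h and 12 h, and 1 from the 24 h anti-FLAG list. The highest FoxA1 score at a place of a single list ran from 43 to 209 (median 57.5), at places of 2 to 5 lists from 63 to 1000 (median 142), and at the 10 places from 336 to 1000 (median 848). Most low-scoring places were seen in 1 list, though a maximum over more lists is also taken over more values.

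Around Esrrb, the events of the combined FoxA1 list and of anti-FoxA1 at 24 and 48 h were mostly in the second stretch of the gene. The combined FoxA1 list had 2 events in the 50 kb before it, 4 between its first and second start (60527 bp), 20 from the second start to its end (99985 bp, 20.0 per 100 kb) and 3 in the 50 kb after it. Anti-FoxA1 at 24 h gave 3, 4, 16 and 2 events in these stretches, and at 48 h 4, 3, 16 and 3. All 3 lists had most of their Esrrb events downstream of the second start, where the longest stretch lies. Anti-FLAG at 24 h gave 3, 2, 7 and 1 events, or 6.0, 3.3, 7.0 and 2.0 per 100 kb. At 48 h anti-FLAG gave 2, 2, 5 and 1, or 4.0, 3.3, 5.0 and 2.0 per 100 kb. With anti-FLAG the stretch before the gene was thus nearly as dense as that after the second start.

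**Figure D2:**
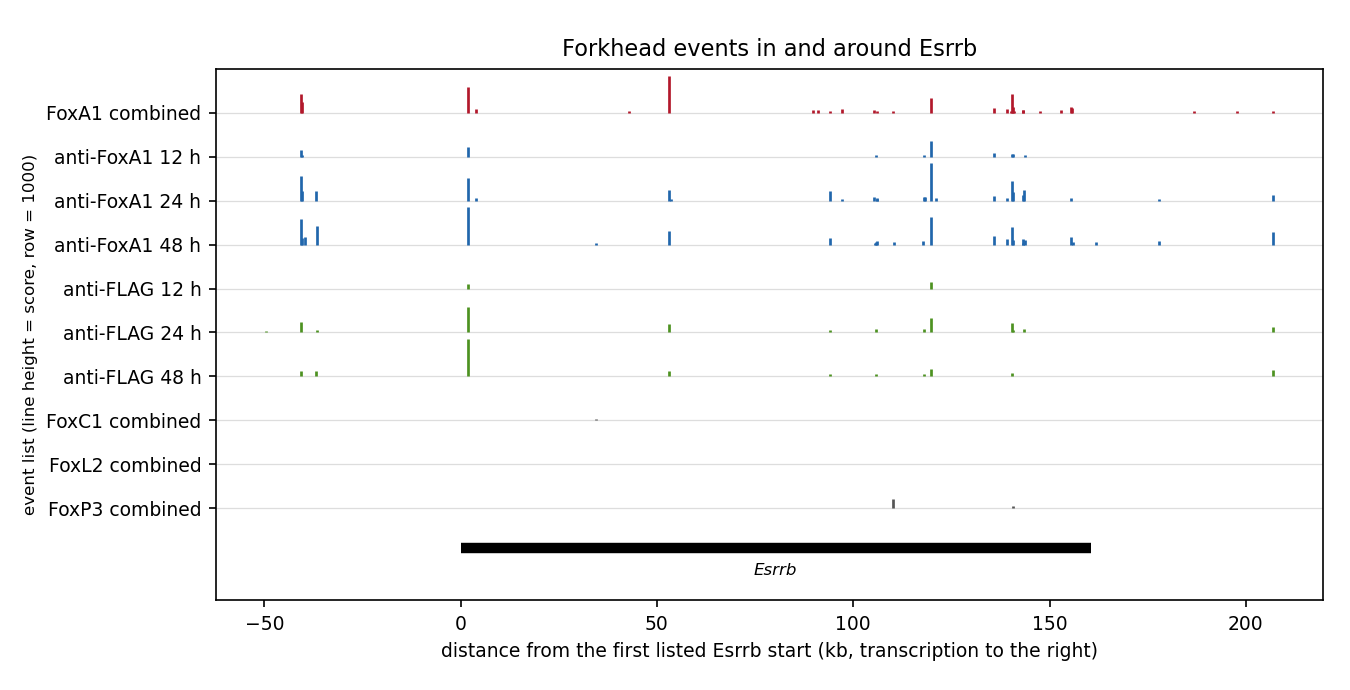
Events in and around Esrrb in the 10 lists that have events in the neighbourhood, by distance from the first listed start in kb, with line height in proportion to the score (1 row is 1000). The black bar is the gene. In the combined FoxA1 list 20 of 29 events lie between the second start and the end of the gene, and FoxL2 has none.

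The places of Esrrb found in all 7 FoxA1 lists were a pair. The first, at 86362928 to 86362965, lay 1811 bp downstream of the first start. Its score was 690 in the combined list, 262, 604 and 1000 with anti-FoxA1 at 12, 24 and 48 h, and 109, 670 and 1000 with anti-FLAG. Both courses were thus highest at 48 h, where the score reached its ceiling. The other, at 86480878 to 86480891, lay 59234 bp downstream of the second start, inside the gene. It scored 387 in the combined list, 437, 1000 and 732 with anti-FoxA1, and 182, 381 and 185 with anti-FLAG. Here both courses were highest at 24 h.

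Another pair of Esrrb places was in 6 FoxA1 lists, missing only from anti-FLAG at 12 h. At 86320512 to 86320522, 40605 bp before the first start, the combined score was 513, the anti-FoxA1 scores 190, 672 and 675, and the anti-FLAG scores at 24 and 48 h 270 and 143. At 86501655 to 86501663, 80011 bp past the second start, they were 496 in the combined list, 84, 531 and 468 with anti-FoxA1 and 266 and 91 with anti-FLAG. The place with the highest combined score around Esrrb, 1000, was in 5 lists. It lay at 86414070 to 86414094, just over 7 kb before the second start, and scored 280 and 375 with anti-FoxA1 and 234 and 144 with anti-FLAG at 24 and 48 h, with no event at 12 h.

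Around Irf2bpl and Cipc, the combined FoxA1 events lay beside the genes and not in them. The combined list had 14 events in the 50 kb past the end of Irf2bpl, 0 in Irf2bpl, 21 in the 59926 bp between the genes (35.0 per 100 kb), 0 in Cipc and 4 in the 50 kb past it. With anti-FoxA1 at 48 h these stretches had 16, 0, 22, 4 and 3 events, and the 4 in Cipc came to 19.4 per 100 kb, near the 24.4 of the merged window. No FoxA1 list had an event inside Irf2bpl, a gene of 4112 bp.

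The FoxA1 events inside Cipc all scored below 100. With anti-FoxA1 there was 1 event at 12 h (score 54), 1 at 24 h (score 55) and 4 at 48 h (scores 69, 93, 59 and 45), and with anti-FLAG 1 at 48 h (score 60). At 86952233 and 86952261 the antibodies met at 48 h within 100 bp. Past the end of Cipc, the place at 86970176 to 86970181 was in the combined list (score 190) and in anti-FoxA1 at 24 h (score 85) and 48 h (score 116).

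**Figure D3:**
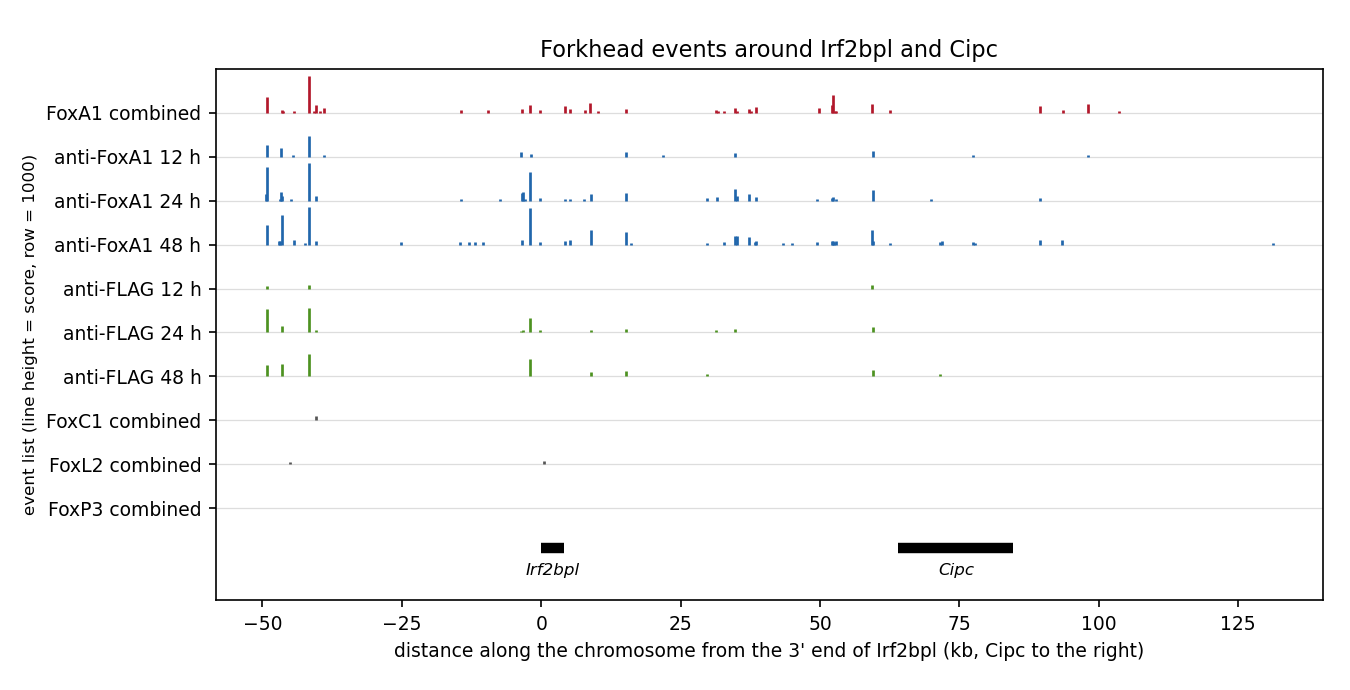
Events around Irf2bpl and Cipc in the same lists, by distance along the chromosome from the 3′ end of Irf2bpl in kb, with line height in proportion to the score (1 row is 1000). Black bars are the genes. The combined FoxA1 list has 0 events in either gene, 14 to the left of Irf2bpl and 21 between the genes.

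The strongest place near Irf2bpl lay past its 3′ end, 45691 bp from its start, at 86839123 to 86839133. All 7 FoxA1 lists had an event within these 11 bp. The score was 1000 in the combined list, 556, 1000 and 1000 with anti-FoxA1, and 103, 663 and 588 with anti-FLAG. It was at the ceiling in 3 lists, more than any other of the 10 places.

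At 86831414 to 86831558, 53400 bp from the start of Irf2bpl, the scores were 420 in the combined list, 330, 902 and 516 with anti-FoxA1, and 72, 616 and 310 with anti-FLAG. Anti-FoxA1 at 24 h had a weaker event here too, with a score of 169. This place stood near the border of the window, and the gene Gm40491 spans it. The third place in all 7 lists was between the genes at 86940069 to 86940182, 6972 bp before the first Cipc start. It scored 243 in the combined list, 162, 300 and 382 with anti-FoxA1 and 88, 144 and 163 with anti-FLAG. These are the highest scores of each list at this place, which holds positions about 100 bp apart. Anti-FoxA1 at 48 h had an event with a score of 382 at 86940071 and another of 92 at 86940182, the latter nearer to the 24 h event at 86940166.

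The remaining 3 of the 10 places were all nearest to Irf2bpl and missing from anti-FLAG at 12 h. At 86878743 to 86878803, 6071 bp from the start and just past the 3′ end of the gene, anti-FoxA1 scored 83, 764 and 973, anti-FLAG 382 and 474 and the combined list 223. At 86834094 to 86834220, where anti-FoxA1 at 24 h had events of 230 at 86834094 and 133 at 86834211, the highest anti-FoxA1 scores were 223, 230 and 794, anti-FLAG 175 and 344 and the combined list 89. At 86895835 to 86895877, 11021 bp before the start, anti-FoxA1 scored 121, 213 and 336, anti-FLAG 96 and 133 and the combined list 105. All of them were highest at 48 h with both antibodies.

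Over the 10 places, taking the highest score of each list at a place, the anti-FoxA1 score was higher at 24 h than at 12 h in 10 of 10, and from 24 to 48 h it was higher in 6, lower in 3 and tied at the ceiling in 1. The 10 places were picked for having events in at least 6 FoxA1 lists, and no such count was made over other places. The median score of the whole anti-FoxA1 list was 74 at 12 h, 86 at 24 h and 89 at 48 h. Since scores of different lists may not share a scale, the percentile of each score in its own list was compared too. By percentile, 9 places were higher and 1 lower from 12 to 24 h, and 5 higher and 5 lower from 24 to 48 h. The place tied at the ceiling is among these 5 lower ones, at percentiles 99.5 and 99.4. Its score of 1000 was shared by 347 events at 24 h and 478 at 48 h, so that fall is no fall in score. With anti-FLAG, all 5 places with an event at both 12 and 24 h were higher at 24 h, and from 24 to 48 h 5 were higher and 5 lower. Each list is 1 library per time, so these orders have no replicate error.

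**Figure D4:**
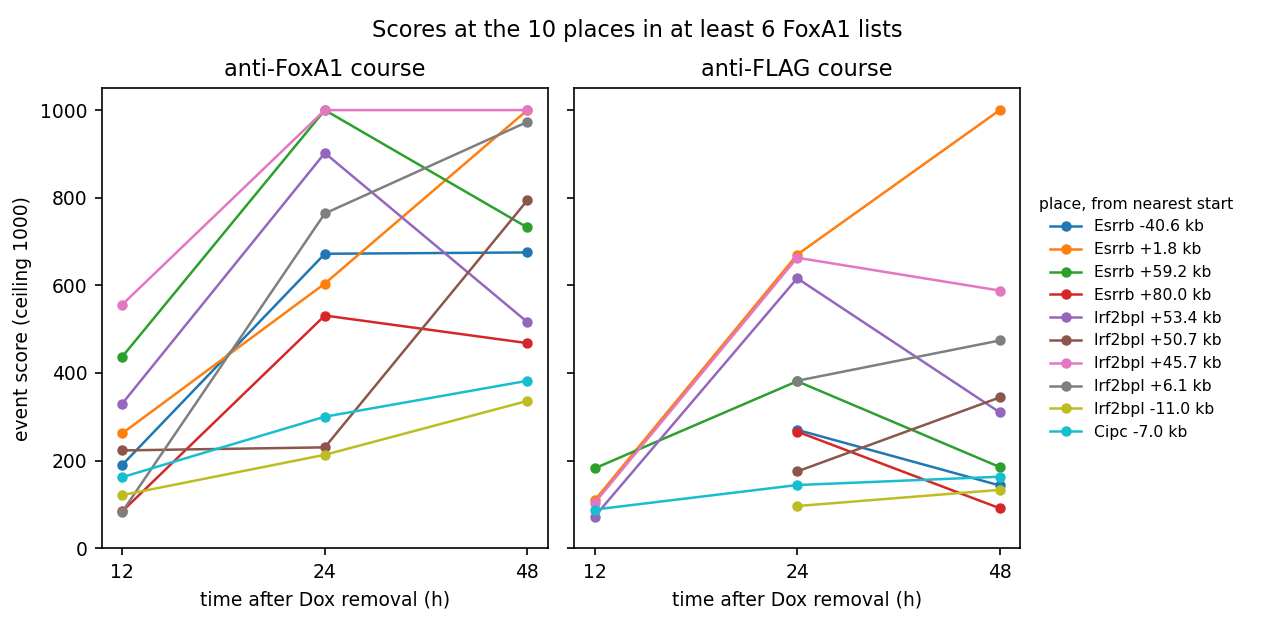
Event score (ceiling 1000) at 12, 24 and 48 h after Dox removal at the 10 places in at least 6 FoxA1 lists, with anti-FoxA1 on the left and anti-FLAG on the right; each line is 1 place, named by its distance from the nearest start of the 3 genes, positive downstream. All 10 lines rise from 12 to 24 h with anti-FoxA1 and go both ways from 24 to 48 h, and only 5 places have an anti-FLAG score at 12 h.

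The scores here spread over their lists, lower in the combined list and at or above the middle in the others. The median event of the neighbourhood stood at percentile 42.1 of the combined list, 58.1, 58.7 and 52.9 of the anti-FoxA1 lists at 12, 24 and 48 h, and 66.9, 50.8 and 66.8 of the anti-FLAG lists. The combined list had a median score of 88.5 here against 106 in the whole list, and 25 of the 68 events were above the list's median. In the anti-FoxA1 lists 13 of 23, 34 of 58 and 40 of 71 events were above the list's median at 12, 24 and 48 h, and in the anti-FLAG lists 4 of 5, 13 of 26 and 13 of 19. The top 10% of a list's scores held 5 of the 68 combined events here, 5, 7 and 13 of the anti-FoxA1 events and 0, 5 and 3 of the anti-FLAG events at these times.

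By time of first call, 88 places had an event in the anti-FoxA1 course. At 12 h 23 of them were already present (26.1%, Wilson 95% interval 18.1 to 36.2), against 15.8% of 51024 places of the course genome-wide. The genes were chosen for many FoxA1 events in these lists. The shares by time in both courses are thus not independent of the choice, and the intervals are no test against the genome-wide values. A first event came at 24 h in 38 places (43.2%, 33.3 to 53.6; genome-wide 52.7%) and at 48 h in 27 (30.7%, 22.0 to 41.0; genome-wide 31.3%). Events at 12, 24 and 48 h were all present at 17 places (19.3%, 12.4 to 28.8), against 13.1% genome-wide. At 4 places there was one at 12 h alone (4.55%, 1.78 to 11.1), against 1.11% genome-wide. All 4 were around Irf2bpl and Cipc, with scores of 46, 46, 54 and 46, near the lowest score of 43. Those at 86841840 and 86978697 also had a combined FoxA1 event within 100 bp, with scores of 140 and 250. Those at 86902623 and 86958215 had no event of another list within 100 bp. Around Esrrb the first calls were 10 at 12 h, 15 at 24 h and 8 at 48 h, and around Irf2bpl and Cipc 13, 23 and 19.

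The anti-FLAG course had 28 places, of which 5 came at 12 h (17.9%, 7.88 to 35.6; genome-wide 8.18%), 21 at 24 h (75.0%, 56.6 to 87.3; genome-wide 71.4%) and 2 at 48 h (7.14%, 1.98 to 22.6; genome-wide 20.3%). All 5 places present at 12 h had an event at 24 and 48 h too. Event by event, 4 of the 5 at 12 h had one at 24 h within 100 bp, against 95.1% of the whole list. The intervals cover counting error only, and places of 1 neighbourhood share their libraries, so the shares are a description.

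**Figure D5:**
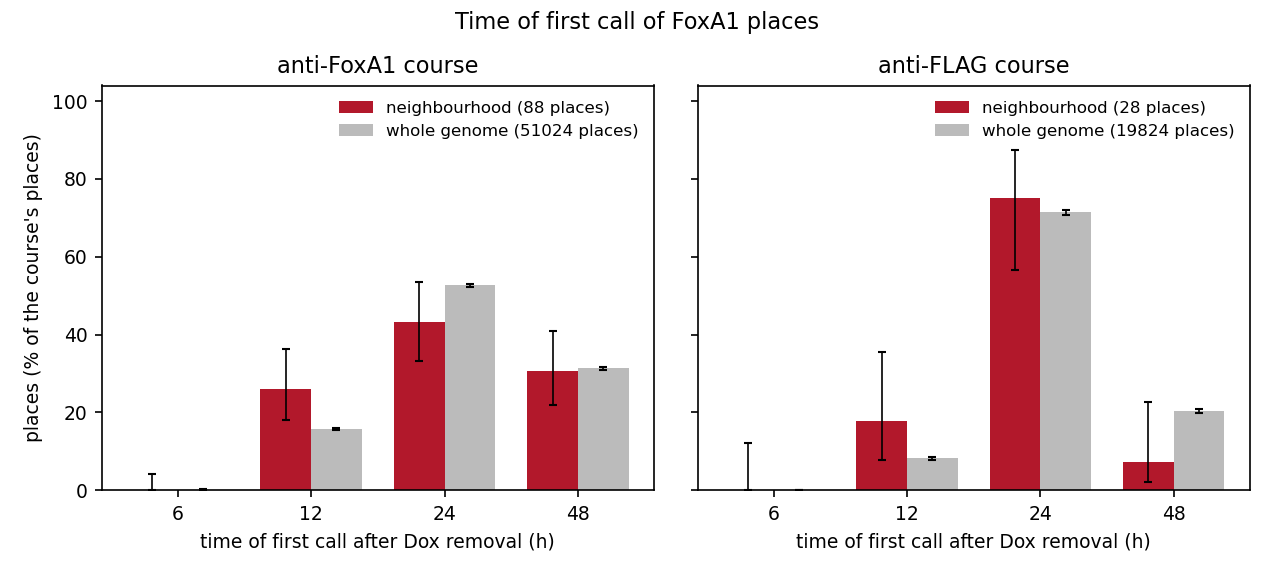
Percent of the places of each FoxA1 course first called at 6, 12, 24 or 48 h, in the neighbourhood (red) and genome-wide (grey), with Wilson 95% intervals for counting error only. The neighbourhood bar at 12 h is 26.1% with anti-FoxA1 against 15.8% genome-wide, and 17.9% with anti-FLAG against 8.18%. The genes were chosen for many FoxA1 events in these lists, so the bars are not independent of the choice.

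The antibodies were compared by the share of events with an event of the other list within 100 bp. At 24 h, 25 of 26 anti-FLAG events here met an anti-FoxA1 event (96.2%, Wilson 95% interval 81.1 to 99.3; whole list 86.0%), and 25 of 58 anti-FoxA1 events met an anti-FLAG one (43.1%, 31.2 to 55.9; whole list 40.5%). At 48 h, 19 of 19 anti-FLAG events met an anti-FoxA1 event (whole list 90.2%) and 19 of 71 the reverse (26.8%; whole list 31.0%). At each time the number met here was the same both ways, so the larger share of the anti-FLAG events follows from their shorter list. The whole lists had the same order of shares.

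Of the 68 combined FoxA1 events, 46 met an event of either course (67.6%, 55.8 to 77.6; whole list 67.9%). Their median score was 120.5, and that of the events with no such partner 55.5, with 129 the highest. In reverse, 39 of 58 anti-FoxA1 events at 24 h met a combined event (67.2%, 54.4 to 77.9), against 52.5% of the whole list. The genes were chosen for many FoxA1 events in these lists, so this share is not independent of the choice. From 12 h, 18 of 23 anti-FoxA1 events met one at 24 h (78.3%, 58.1 to 90.3), where 89.2% of the whole list did.

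The gaps between events restate the choice of genes with many of them and are given as a description. The median gap between consecutive combined FoxA1 events was 2369 bp (3230 bp around Esrrb, 1948 bp around Irf2bpl and Cipc) against 25892 bp in the whole list. Gaps of at most 500 bp made up 14 of 66 (21.2%) against 8.86%. With anti-FoxA1 the median gap was 2304.5 bp at 24 h and 2104 bp at 48 h. The 259074 bp between the Esrrb window and that of Irf2bpl held 20 combined FoxA1 events (7.72 per 100 kb). The Esrrb window had 11.1 per 100 kb, the merged window of Irf2bpl and Cipc 21.1 and the window of the median gene 1.29. These 20 events were not spread evenly, since the nearest of any list lay 88015 bp past the Esrrb window.

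At the borders, the first event inside the Esrrb window on the left was 520 bp from the edge (anti-FLAG 24 h, score 51) and the nearest outside 1205 bp (anti-FoxA1 24 h, score 48). On its right the last one inside was 3687 bp from the edge (score 162) and the nearest outside 88015 bp away (combined list, score 236), so no list had an event in between. For the merged window the events next to the left edge were 711 bp inside (score 169) and 861 bp outside (score 98), and next to the right edge 3494 bp inside (score 50) and 453 bp outside (score 58). A wider window would thus add events at the ends of the merged window sooner than to the right of Esrrb.

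The other Forkhead factors had 6 events here, 2 each. At least 1 event inside or within 50 kb was found for 7.69% of protein-coding genes with FoxC1, 32.3% with FoxL2 and 21.6% with FoxP3. A count of 0 at a gene was thus common in these shorter lists. At least 2 events, the number of FoxL2 at Irf2bpl and of FoxP3 at Esrrb, were found for 11.6% and 6.96% of genes. FoxP3 had both of its events inside Esrrb and none near Irf2bpl or Cipc. The event at 86471207 scored 254, at percentile 89.0 of its list, and lay 86 bp from a combined FoxA1 event that scored only 43. The event at 86501798 scored 46 and lay 49 bp from a combined FoxA1 event with a score of 153. Both FoxP3 events thus had a FoxA1 event within 100 bp, as did 42.6% of the whole FoxP3 list.

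FoxC1 had an event in Esrrb at 86395661 (score 44), 29 bp from an anti-FoxA1 event at 48 h with a score of 51. Its other event, at 86840400 (score 105), lay 103 bp from a combined FoxA1 event with a score of 215, past the 3′ end of Irf2bpl. An anti-FLAG event of FoxA1 at 24 h (score 78) lay 100 bp from it. FoxL2 had none near Esrrb. Its event at 86881151 (score 76) was the only one of any list inside Irf2bpl, 616 bp from the nearest combined FoxA1 event. The other, at 86835624 (score 63), was 690 bp from one and 182 bp from an anti-FoxA1 event at 24 h (score 43). Neither FoxL2 event met a FoxA1 event within 100 bp, and these were the 2 places without FoxA1. In the whole FoxL2 list only 18.5% of events met a combined FoxA1 event, so having none was usual. For FoxC1, 0 of 2 events here met a combined FoxA1 event within 100 bp, against 53.6% of the whole FoxC1 list.

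Other annotated genes share the windows. Zdhhc22, a palmitoyltransferase gene past the end of Cipc, held 1 combined FoxA1 event. The long non-coding RNA gene Gm51955, which overlaps the left edge of the merged window, held 10 combined FoxA1 events, 9 of them inside the window, and 8 with anti-FoxA1 at 24 h and at 48 h. Gm40491 and Gm32934 held 1 combined event each, and Gm40483, Gm26698 and Gm32666 none. Of the pseudogenes, Gm52007 held 1 and Gm10095 0.

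The genes were also set among relatives by function. Esrrb, Irf2bpl and Cipc were chosen for many FoxA1 events, so their high ranks here are not independent of the choice. Of 20 pluripotency genes, 19 had a combined FoxA1 event inside or within 50 kb, with a median of 6 events against 2 over all genes. All protein-coding genes with an event made up 74.2%. Esrrb had the most, followed by Prdm14 and Klf5, regulators of the naive state, with 12 each. Per 100 kb the 3 were close, with 11.13 for Esrrb, 10.55 for Prdm14 and 10.46 for Klf5. With anti-FoxA1 at 24 h Prdm14 (20.22 per 100 kb) and Klf5 (15.69) were denser than Esrrb (9.6), and with anti-FLAG at 24 h Prdm14 had 18 events against 13. Among the oestrogen-related and oestrogen receptors, the nearest relatives of Esrrb had far fewer: Esrrg had 7, Esrra 2, Esr1 1 and Esr2 0. Of the IRF2-binding proteins, Irf2bp2 had 14 and Irf2bp1 4, and Irf2 itself had 1. Of 19 clock genes, 18 had an event (94.7%, against the 74.2% of all genes), with a median of 2, equal to that of all genes. Cipc led them, followed by Per1, a repressor of the clock, with 8 and Rora, an activator, with 7. A longer gene has a longer window, and Esrrb is 160512 bp long.

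Genes with the most similar counts were found over the 10 lists with at least 1000 events, by the Bray-Curtis distance between counts (0 for equal counts). The nearest to Esrrb were Tead1 (0.065), Cadm1 (0.088), Jarid2 (0.092), Dgkg (0.095) and Mboat2 (0.095). Tead1 had 26 combined FoxA1 events and 10, 26 and 28 with anti-FoxA1 at 12, 24 and 48 h, against 29 and 10, 25 and 26 for Esrrb. The nearest to Irf2bpl were Rere (0.089), Tead1 (0.11), Dym (0.115), Msi2 (0.123) and Dst (0.131). Rere had 31 combined FoxA1 events and 5, 31 and 36 with anti-FoxA1, against 33 and 10, 30 and 35 for Irf2bpl. The genes listed share their libraries, so the distances describe the counts only.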

How the data were processed

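Per the submitters' processing notes, the tools behind the ChIP-exo lists of mouse ES cells were BWA 0.7.17-r1188, Picard and SAMtools, with the build mm10. The file headers name ChExMix as the caller of the deposited events. Its version and settings are not stated, nor is the way in which libraries were merged. Each event has a deposited score from 43 to 1000. With neither reads nor replicate lists in the files, depth is unknown and nothing could be tested across replicates. The title of 1 of the 2 empty control libraries names anti-FoxA1 and its characteristics anti-FLAG.

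Groups were read from the labels. Events were counted against GRCm38.p6 gene positions (21887 protein-coding genes) with Python 3.11.15, numpy 2.4.6 and pandas 2.3.3, and drawn with matplotlib 3.10.9. The counting was tested on simulated data. Events within 100 bp were joined into places, and shares have Wilson 95% intervals for counting error only. Motif letters were searched in RefSeq promoters, since the planned search around every event needs a genome that was not used here. Similar genes were the 5 at the smallest Bray-Curtis distance, and from the lists by function only the members with the most events were named, except that the receptor and IRF2-binding lists were named in full after their values were seen. The members, lists and rules were chosen with earlier results of these data known. Alternatives were other windows and joining distances and higher scores alone. Some items of the series are not reported here.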

Additional observations from a re-analysis of the deposited data

How the results depend on the processing

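Of 42 alternative values, 23 stayed close to the reported one and 19 moved. With events at or above the list's median score alone, the combined FoxA1 events near Esrrb, Irf2bpl and Cipc fell to 10, 13 and 8, the places to 55, the places first called at 12, 24 and 48 h to 13, 19 and 15, and the anti-FLAG events at 24 h that met an anti-FoxA1 event rose to 100%. With 20 kb windows Irf2bpl and Cipc had 11 events each and 15 places were first called at 12 h. With 100 kb they had 51 and 31, and inside the genes alone 0 each. Meeting within 50 bp gave 80.8%. The genes with a denser window than Irf2bpl numbered 10 with 20 kb windows, 2 with the higher scores and 3 in the anti-FLAG list at 24 h, alternatives chosen after seeing the data. No paired analysis was possible because the combined lists cannot be split by replicate and no result comes from a test; for the same reason no replicate could be left out. Depth is unknown, so an event missing from a list cannot be told apart from one below its calling limit.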
